A study of Mus musculus with 12 samples.

Results

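Cathepsins are proteases that work mainly in the lysosome. The 10 described here are Ctsa, Ctsb, Ctsc, Ctsd, Ctsh, Ctsk, Ctsl, Ctso, Ctss and Ctsz. They were taken by symbol from a table of 25117 gene symbols, and all 10 were present. The samples were 12 poly(A) RNA libraries of mouse embryonic fibroblasts, connective tissue cells taken from embryos, in 4 groups of 3. All cells carried Rbbp5 (flox/flox); Rosa26 CRE (+/+), and the age of the embryos is not given in the sources used here. RBBP5 belongs to the core of the SET1/COMPASS complexes, which methylate lysine 4 of histone H3. The group labelled RBBP5 KO, EBSS received tamoxifen for 7 days and then 16 hours of EBSS, a balanced salt solution without serum or amino acids that is used to starve cells. The group labelled wildtype, EBSS received no tamoxifen and the same 16 hours of EBSS. The KO group in full medium received tamoxifen for 7 days and stayed in full DMEM, and the wildtype group in full medium received neither tamoxifen nor EBSS. All cells had been grown in DMEM with 10% FBS. By the labels, no group received tamoxifen with an intact Rbbp5 locus, so tamoxifen and loss of Rbbp5 cannot be told apart. The sample titles number the replicates, and no source used here says whether these were separate cultures or embryos, so p-values measure the spread between these libraries only.

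Cathepsins are made as inactive precursors, tagged with mannose 6-phosphate, carried to endosomes by receptors for that tag, and activated by cleavage as the compartment acidifies. They are grouped by the residue that cuts: Ctsd is an aspartic protease, Ctsa a serine carboxypeptidase, and the other 8 are cysteine proteases held in check by cystatins and some serpins. Many lysosomal genes are targets of TFEB and its relatives, which bind a sequence built around CACGTG.

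The promoter windows of 5 members are shown because Ctsd and Ctsa rose together and Ctsl, Ctsc and Ctso fell together in KO cells in full medium, and because 3 of the 5 hold the core of the TFEB site. RefSeq windows on GRCm38.p6, from 250 bases before to 50 bases after the annotated gene start, were at hand for 8 of the 10 members. Capitals mark CACGTG, which reads the same on both strands, and each line runs 5′ to 3′ on the strand of the gene.
Ctsd (chr7:142387778-142388077, minus strand): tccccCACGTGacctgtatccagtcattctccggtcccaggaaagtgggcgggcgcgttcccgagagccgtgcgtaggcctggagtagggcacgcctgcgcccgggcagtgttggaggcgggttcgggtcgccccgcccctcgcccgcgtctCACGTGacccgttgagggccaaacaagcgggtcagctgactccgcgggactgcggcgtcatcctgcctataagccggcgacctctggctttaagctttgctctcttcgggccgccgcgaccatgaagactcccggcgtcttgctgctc
Ctsa (chr2:164833523-164833822, plus strand): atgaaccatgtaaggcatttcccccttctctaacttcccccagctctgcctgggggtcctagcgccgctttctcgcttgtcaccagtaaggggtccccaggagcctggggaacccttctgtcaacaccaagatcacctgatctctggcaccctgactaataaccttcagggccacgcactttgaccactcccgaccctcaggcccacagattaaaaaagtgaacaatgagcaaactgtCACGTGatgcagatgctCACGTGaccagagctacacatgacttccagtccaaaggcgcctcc
Ctsl (chr13:64370471-64370770, minus strand): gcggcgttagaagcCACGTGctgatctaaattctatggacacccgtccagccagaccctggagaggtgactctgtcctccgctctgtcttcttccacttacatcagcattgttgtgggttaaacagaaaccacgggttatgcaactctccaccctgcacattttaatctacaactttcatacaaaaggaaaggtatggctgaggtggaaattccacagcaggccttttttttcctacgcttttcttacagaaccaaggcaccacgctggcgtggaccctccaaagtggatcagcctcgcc
Ctsc (chr7:88277835-88278134, plus strand): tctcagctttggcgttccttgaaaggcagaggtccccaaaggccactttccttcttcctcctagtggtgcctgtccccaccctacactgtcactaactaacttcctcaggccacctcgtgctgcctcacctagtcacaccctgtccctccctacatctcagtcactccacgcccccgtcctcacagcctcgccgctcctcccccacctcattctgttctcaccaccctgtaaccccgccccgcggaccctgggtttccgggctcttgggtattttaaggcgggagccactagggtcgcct
Ctso (chr3:81932351-81932650, plus strand): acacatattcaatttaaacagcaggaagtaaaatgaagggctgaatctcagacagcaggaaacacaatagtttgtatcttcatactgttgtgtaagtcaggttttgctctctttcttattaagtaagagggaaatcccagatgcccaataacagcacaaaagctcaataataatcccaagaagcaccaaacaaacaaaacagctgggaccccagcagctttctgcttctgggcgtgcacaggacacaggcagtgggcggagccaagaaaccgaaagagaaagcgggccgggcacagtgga
CACGTG was found in the windows of Ctsa, Ctsd and Ctsl, 3 of 8 members matched. Counted by gene in the same way, 8.09% of 27025 genes held it. Over all RefSeq windows of the same length, 7.15% of 32851 held it. The longer form with GT directly before CACGTG and AC directly after it was found in 0 of the 8, against 0.370% of genes and 0.326% of all windows. The windows shown for Ctsa and Ctsl lie inside these genes as annotated in GENCODE vM21, where Ctsa starts at 164832873 and Ctsl, on the minus strand, at 64370890. Ctsa has a further RefSeq start, at the outer end of the gene, whose window (chr2:164832622-164832921) held neither form. These matches are a description of letters. Ctsd and Ctsa, which rose, and Ctsl, which fell, all held CACGTG in the window shown.

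RNA of most fibroblast markers was present in every library, at unlike levels, and 2 features of the libraries touch every value below. The summed TPM (a transcript level corrected for length and library size) of 13 fibroblast markers was 5629 to 7554 in libraries labelled KO, EBSS, 3281 to 3709 in libraries labelled wildtype, EBSS, 4488 to 5194 in KO cells in full medium and 7447 to 7497 in wildtype cells in full medium. Vim alone averaged 2489, 2465, 3090 and 2840 TPM in these groups, in that order. The sums hide changes of single markers: Dcn averaged 145, 1.37, 23.3 and 157 TPM. Against wildtype cells in full medium, as deposited, 11 of the 13 were called lower and 0 higher in KO cells in full medium. The same counts held for libraries labelled wildtype, EBSS. Of all genes tested, 35.8% were lower and 20.1% higher in the first case, and 71.8% and 9.25% in the second. In full medium the targeted gene Rbbp5 stood at 7.47, 9.34 and 8.31 TPM in KO cells, against 26.2, 25.7 and 26.2 TPM in wildtype cells. In EBSS the KO label did not go with low Rbbp5: libraries with that label had 31.9, 24.6 and 23.0 TPM of Rbbp5, against 12.4, 13.97 and 11.8 TPM under the wildtype label, a difference of 0.99 as deposited and 0.08 (adjusted p = 0.558) after the scaling described next. The EBSS libraries are therefore named by their labels only. The libraries labelled wildtype, EBSS also stood apart in composition: the ribosomal RNA precursor Rn45s was at 1454 to 2105 TPM there, against 68.3 to 272 TPM in the other 9, and the median over tested genes was 10.1 to 10.5 TPM, against 17.5 to 23.0 TPM elsewhere. Their columns summed to 92.3% to 94.1% of 1e+06 TPM, against 98.4% to 99.4% in the other 9, and 190, 229 and 1122 tested genes were at 0 in replicates 1, 2 and 3, against 12 to 130 in the other 9. The part of these features in the values of the cathepsins was not tested. The tests of the cathepsins are therefore given on TPM as deposited and after median-of-ratios scaling, which divides a library by the median ratio of its genes to their geometric mean over all libraries. In EBSS minus full medium among wildtype labels, the median log2 difference of all tested genes was -0.94 as deposited and -0.10 after scaling.

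Ctsa, Ctsb, Ctsd, Ctsl and Ctsz made up nearly all of the cathepsin RNA in every library. Together they held 98.7% to 99.9% of the summed TPM of the 10. Of the remaining 5, Ctsh, an aminopeptidase, reached 19.4 TPM, Ctsc and Ctso stayed under 5 TPM, Ctsk reached 1.68 TPM, and Ctss stayed under 2 TPM except in 1 library. The sum of the 10 was 2380 to 2695 TPM in libraries labelled KO, EBSS, 2529.6 to 2678 TPM in those labelled wildtype, EBSS, 2451 to 2536 TPM in KO cells in full medium and 2463 to 2640 TPM in wildtype cells in full medium. These ranges overlap, so the total as deposited hardly moved while its members did. After scaling, the sum was 3959 to 4290 in the libraries labelled wildtype, EBSS, against 1886 to 2483 in the other 9.

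**Figure D1:**
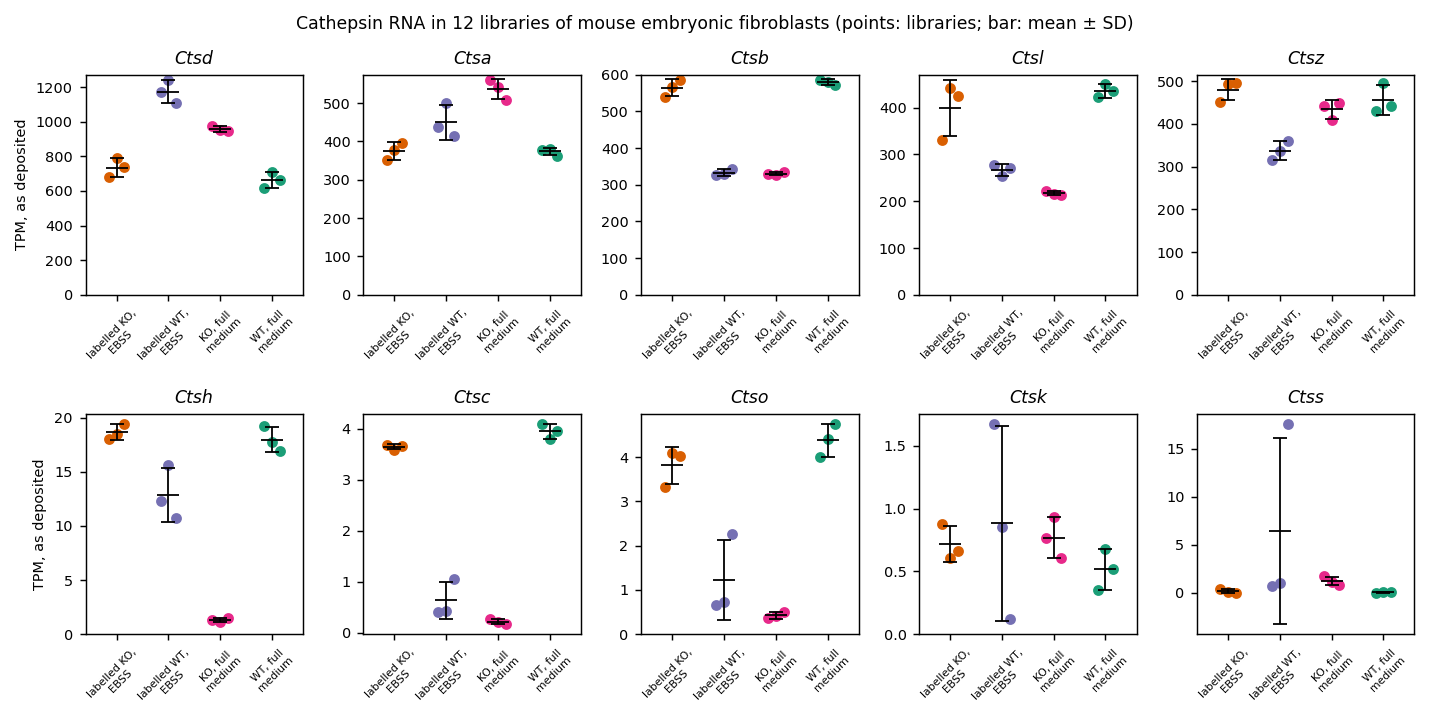
TPM as deposited of each of the 10 cathepsins (1 panel each, vertical axis from 0 or below the error bar) in the 4 groups; points are libraries and bars are the mean ± SD over 3. Ctsh, Ctsc and Ctso are lowest in KO cells in full medium, Ctsd and Ctsa are higher there than in wildtype cells in full medium, and 1 library labelled wildtype, EBSS holds the high Ctss value of 17.6 TPM.

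In full medium the family split between KO and wildtype cells. The aspartic protease Ctsd and the serine carboxypeptidase Ctsa were higher in KO cells, while 5 cysteine cathepsins, Ctsb, Ctsc, Ctsh, Ctsl and Ctso, were lower, by as little as 0.81 (Ctsb) and as much as 3.04 (Ctsh) on the log2(TPM + 1) scale. With limma and an adjusted p under 0.05, 7 of the 9 members tested were called, 2 higher and 5 lower, with the same counts after scaling. Of all 12653 genes tested, 55.9% were called, 20.1% higher and 35.8% lower; after scaling 53.7% were called, 26.7% were higher and 27% lower. A call is thus common among all genes in this comparison. The median change of the 9 was -0.81, beside -0.17 over all genes, and after scaling -0.62 beside 0.01. Ctsk passed the filter on low values in no comparison and was not tested. Ctsc and Ctso passed it only through groups in which they were high, and Ctss through 3 libraries, so these counts are no support for a change of the family.

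Ctsd, the main aspartic protease of the lysosome, was the most abundant member in KO cells, at 977, 951 and 946 TPM, against 618, 708 and 665 TPM in wildtype cells. The groups did not overlap. The difference was 0.53 (SE 0.08; limma, adjusted p = 0.000158), and 0.72 after scaling. Ctsa, which trims peptides from their carboxyl end and shields the sialidase Neu1 and beta-galactosidase, was at 560.4, 543 and 507 TPM in KO cells, against 379, 380.0 and 363 TPM in wildtype cells. It rose by 0.52 (SE 0.08; limma, adjusted p = 0.000259), and by 0.71 after scaling. All 3 KO libraries were above all 3 wildtype libraries for both genes, as they were for 30.5% of all genes tested.

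Among the abundant cysteine cathepsins, Ctsb, an endopeptidase that also removes dipeptides, was at 330.2, 327 and 334 TPM in KO cells, against 586, 579.9 and 571 TPM in wildtype cells. Its libraries lay close together within each group, and the difference of -0.81 (SE 0.06; limma, adjusted p = 8.3e-07) was many times their spread. Ctsl, an endopeptidase of broad specificity, was at 222, 216 and 214 TPM in KO cells, against 422, 451 and 434 TPM in wildtype cells, a difference of -0.999 (SE 0.10; limma, adjusted p = 7.9e-06). After scaling Ctsb fell by 0.62 and Ctsl by 0.81. Ctsz, a carboxypeptidase, was at 443, 409.7 and 449.8 TPM in KO cells, against 430.3, 495 and 442 TPM in wildtype cells. These groups overlapped; the difference was -0.07 with a 95% interval of -0.24 to 0.11 (limma, adjusted p = 0.489), and 0.12 with an interval of -0.08 to 0.32 after scaling, so its sign depends on the scaling.

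Among the members called, Ctsh, Ctsc and Ctso differed most on the log2(TPM + 1) scale. Ctsh, known for making mature surfactant protein in lung, was at 1.28, 1.15 and 1.47 TPM in KO cells, against 19.2, 17.7 and 16.9 TPM in wildtype cells, a difference of -3.04 (SE 0.14; limma, adjusted p = 5.0e-08), and -2.82 after scaling. Ctsc, a dipeptidyl peptidase that activates the serine proteases of immune granules, was at 0.271, 0.209 and 0.172 TPM in KO cells, against 4.09, 3.80 and 3.96 TPM in wildtype cells, a difference of -2.02 (SE 0.15; limma, adjusted p = 1.0e-06). Ctso, a member with few known substrates, was at 0.353, 0.406 and 0.510 TPM in KO cells, against 3.996, 4.41 and 4.74 TPM in wildtype cells, a difference of -1.92 (SE 0.22; limma, adjusted p = 2.9e-05). None of these groups overlapped, and 49.7% of all genes tested were likewise lower in KO cells without overlap. After scaling the differences were -1.80 for Ctsc and -1.71 for Ctso. The added 1 in log2(TPM + 1) understates the change of Ctsc and Ctso, which lay below 1 TPM in KO cells. With a pseudocount of 0.1 the differences were -3.69 for Ctsh, -3.69 for Ctsc and -3.11 for Ctso.

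Ctsk and Ctss lie side by side on chromosome 3 of GRCm38, at 95499256 to 95509362 and 95526786 to 95556403 on the plus strand in GENCODE vM21, 17423 bases apart with 0 annotated genes between them. Ctsk, the collagen-cleaving protease of osteoclasts, was at 0.762, 0.934 and 0.608 TPM in KO cells, against 0.349, 0.680 and 0.517 TPM in wildtype cells. These groups overlapped, and 6 osteoclast markers summed to 0.203 to 3.75 TPM over all libraries. Ctss, which processes the invariant chain of antigen-presenting cells, was at 1.70, 1.06 and 0.829 TPM in KO cells; the wildtype libraries were at 0, 0.0234 and 0.0351 TPM. The groups did not overlap, yet the difference of 1.09 (SE 0.69; limma, adjusted p = 0.205) did not pass the test over all 12 libraries, nor did the 1.04 after scaling (adjusted p = 0.275). The unscaled difference passed when the third library labelled wildtype, EBSS was left out of the shared estimate of spread (limma, adjusted p = 0.00014). It also passed when only the 6 libraries of full medium were fitted (limma, adjusted p = 0.000102). With a pseudocount of 0.1 the difference was 3.39 (limma, adjusted p = 0.0163). Ctss met the filter on low values only through KO libraries in full medium and the third library labelled wildtype, EBSS. Fits on fewer libraries kept that filter. These passes are therefore no support for a change.

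**Figure D2:**
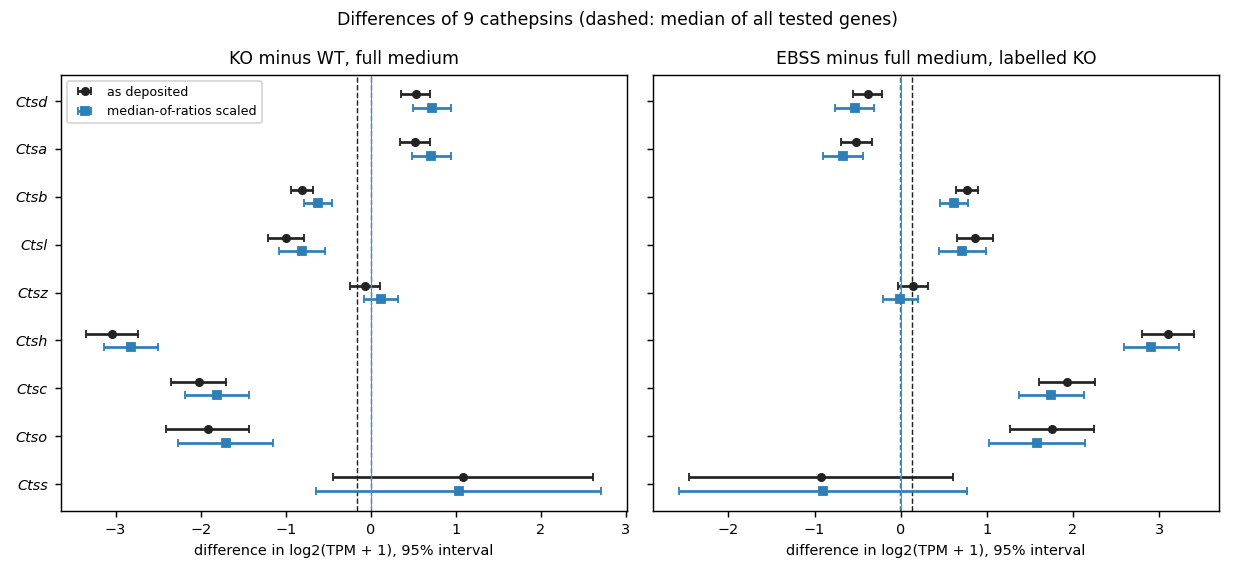
Difference in log2(TPM + 1) with its 95% interval for 9 cathepsins, from KO minus wildtype in full medium (left) and from EBSS minus full medium among KO labels (right); circles are TPM as deposited, squares are scaled values, dashed lines are the medians of all tested genes. Ctsd and Ctsa lie right of 0 on the left and left of 0 on the right, and Ctsb, Ctsl, Ctsh, Ctsc and Ctso do the reverse, under both scalings.

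Ratios within a library do not depend on how libraries are scaled to each other. The pairs below join members called in opposite directions, or by unlike amounts, in these same libraries. The ratios therefore restate the split and are no further support for it. The ratio of Ctsd to Ctsb was 2.96, 2.91 and 2.84 in KO cells in full medium, against 1.05, 1.22 and 1.16 in wildtype cells. The ratio of Ctsa to Ctsl was 2.53, 2.51 and 2.37 in KO cells, against 0.899, 0.843 and 0.835 in wildtype cells. Neither ratio overlapped between the groups. Ctsh was 0.351% to 0.441% of the Ctsb level in KO cells, against 2.96% to 3.28% in wildtype cells.

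**Figure D3:**
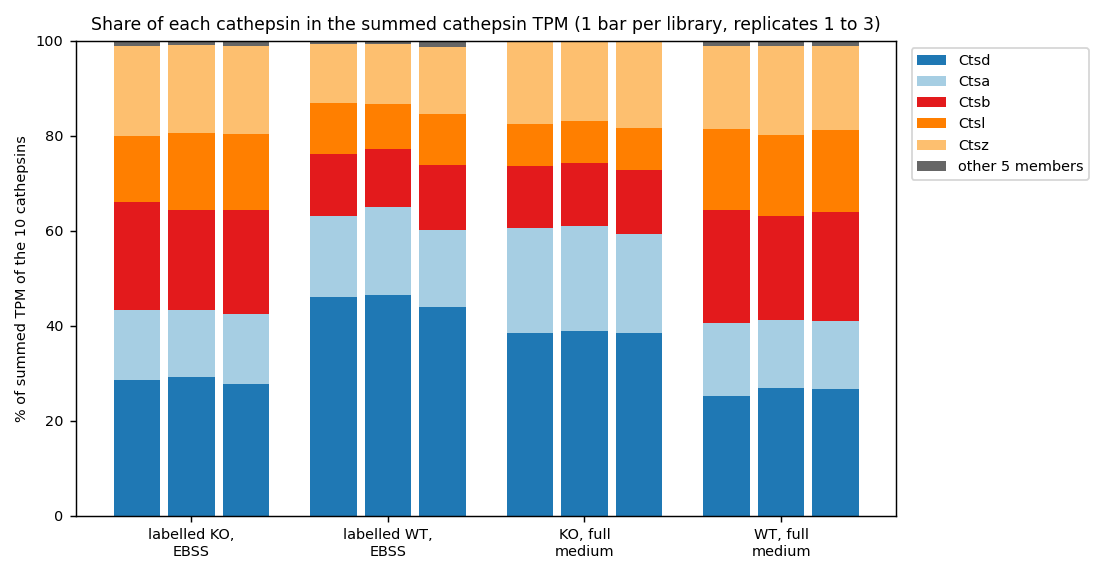
Share of Ctsd, Ctsa, Ctsb, Ctsl, Ctsz and the other 5 members in the summed TPM of the 10 cathepsins, 1 stacked bar per library from 0 to 100%. Ctsd held 27.7% to 29.2% in libraries labelled KO, EBSS, 43.9% to 46.4% in those labelled wildtype, EBSS, 38.5% to 38.8% in KO cells in full medium and 25.1% to 26.8% in wildtype cells in full medium.

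Genes that act on cathepsins also moved in both directions in KO cells in full medium, as did genes at large. Of all genes tested, 20.1% were higher and 35.8% lower, and after scaling 26.7% and 27%. The counts of lists here and in the next paragraph stand beside these shares. Of 13 listed inhibitors of cysteine cathepsins 6 were tested; 2 rose and 3 fell as deposited, and 3 rose and 2 fell after scaling. The mouse serpin Serpina3g, which inhibits cysteine cathepsins, was at 0.249, 0 and 0.320 TPM in KO cells, against 32.3, 34.5 and 34.1 TPM in wildtype cells, a difference of -4.87. The cystatin Cst6 fell by 0.82, while stefin B (Cstb) rose by 0.40. Of the 8 genes of sorting and maturation, all tested, 2 rose and 1 fell under both scalings. Gnptg, a subunit of the enzyme that starts the mannose 6-phosphate tag, rose by 1.26, and Nagpa, which completes the tag, by 1.18. Lgmn, the asparaginyl protease that cleaves several cathepsins to their mature forms, fell by 0.87.

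Among the 4 partners of Ctsa, 2 rose and 1 fell, and after scaling 2 rose and 0 fell. Neu1, the sialidase held in a complex with Ctsa, was at 66.8, 64.0 and 74.2 TPM in KO cells, against 23.1, 22.4 and 22.9 TPM in wildtype cells, and rose by 1.54, while Galns rose by 0.61. Glb1, beta-galactosidase, was at 51.9, 54.5 and 47.9 TPM in KO cells, against 80.6, 81.0 and 82.2 TPM in wildtype cells, a difference of -0.65 (limma, adjusted p = 0.036). That call was lost after scaling (-0.46; adjusted p = 0.168) and without any 1 of the 6 libraries of full medium (adjusted p = 0.0615 to 0.0979). Neu1 and Galns thus moved in the direction of Ctsa, and Glb1 lay the other way. Of 6 other lysosomal proteases 5 were tested, and 1 rose (Dpp7, by 0.76) and 1 fell (Lgmn); after scaling 3 rose and 1 fell. Of 4 transcription factors of lysosomal genes 3 were tested: Tfeb rose by 0.59, Tfe3 fell by 0.60, and Mitf was not called. Of 13 other cathepsin genes only 2 passed the filter; Ctsf, a further cysteine cathepsin, fell by 1.34, and Ctsw changed by 0.17 without a call. Fibroblast markers moved as well, with 0 of 13 higher and 11 lower in KO cells, beside 20.1% and 35.8% of all genes tested. Their part in the changes of the cathepsins was not tested.

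EBSS against full medium among KO labels gave the opposite pattern. Ctsb, Ctsc, Ctsh, Ctsl and Ctso were higher in the libraries labelled KO, EBSS and Ctsa and Ctsd were lower. By limma 7 of 9 members were called, 5 higher and 2 lower, and the counts were the same after scaling. Of all genes tested, 54.2% were called, 33.3% higher and 20.9% lower; after scaling 52.2% were called, 26% were higher and 26.2% lower. The median of the 9 was 0.77 beside 0.13 over all genes, and 0.62 beside -0.00 after scaling. This comparison shares the KO libraries in full medium with the one before it, so opposite signs are not 2 independent observations.

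Ctsh was at 18.1, 18.5 and 19.4 TPM in libraries labelled KO, EBSS, against 1.28, 1.15 and 1.47 TPM in KO cells in full medium, a difference of 3.10 (SE 0.14; limma, adjusted p = 4.0e-08). Ctsc was at 3.69, 3.59 and 3.67 TPM, against 0.271, 0.209 and 0.172 TPM in full medium, a difference of 1.93 (SE 0.15; limma, adjusted p = 1.5e-06). Ctso was at 3.33, 4.09 and 4.02 TPM in EBSS, against 0.353, 0.406 and 0.510 TPM in full medium, a difference of 1.75. No library in EBSS overlapped with one in full medium for these 3 genes. The share of all genes without overlap was not counted for this comparison. Ctsb rose to 540.1, 566 and 586 TPM in EBSS, against 330.2, 327 and 334 TPM in full medium, a difference of 0.77. Ctsl was at 331, 441 and 425 TPM in EBSS, against 222, 216 and 214 TPM in full medium, a difference of 0.86. After scaling these differences were 2.91 for Ctsh, 1.75 for Ctsc, 1.58 for Ctso, 0.62 for Ctsb and 0.71 for Ctsl.

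Ctsa was at 351, 378 and 396 TPM in libraries labelled KO, EBSS, against 560.4, 543 and 507 TPM in KO cells in full medium, and fell by 0.52. Ctsd was at 680.4, 788 and 738 TPM in EBSS, against 977, 951 and 946 TPM in full medium, and fell by 0.38 (SE 0.08; limma, adjusted p = 0.00157). Both fell without overlap, and the share of all genes without overlap was not counted for this comparison. After scaling Ctsa fell by 0.67 and Ctsd fell by 0.53. Within a library, Ctsh was 3.27% to 3.34% of the Ctsb level under the KO label in EBSS, against 0.351% to 0.441% in KO cells in full medium. Ctsz differed by 0.15 (95% interval -0.03 to 0.32), and by -0.00 after scaling. Ctss was at 0.375, 0.0802 and 0 TPM in EBSS, against 1.70, 1.06 and 0.829 TPM in full medium. The difference was -0.93 (limma, adjusted p = 0.283), and -0.90 after scaling. The unscaled difference passed when the third library labelled wildtype, EBSS was left out (limma, adjusted p = 0.000459). Ctss meets the filter on low values only with that library, so this pass is no support for a change.

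Genes around the cathepsins turned in the same comparison: Serpina3g was higher by 4.92, Ctsf by 1.22 and Lgmn by 0.92 in libraries labelled KO, EBSS, while Neu1 fell by 1.59 and Gnptg fell by 1.12. Of 6 inhibitors tested 2 were higher and 2 lower, beside 33.3% and 20.9% of all genes tested. Of 8 genes of sorting and maturation 2 were higher and 4 lower, and after scaling 1 was higher and 4 lower. Among transcription factors Tfe3 alone of 3 tested was called, higher by 0.82.

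No cathepsin differed detectably between the libraries labelled KO, EBSS and wildtype cells in full medium, groups whose labels differ in genotype and medium. Rbbp5 went against the genotype label here, at 31.9, 24.6 and 23.0 TPM under the KO label in EBSS, against 26.2, 25.7 and 26.2 TPM in wildtype cells in full medium (difference 0.01; limma, adjusted p = 0.992). By limma 0 of 9 cathepsins were called, and 0 were under an unadjusted p of 0.05, as deposited and after scaling. The fits with other settings and with single libraries left out also gave 0. Of all genes 0.134% were called, 17 of 12653, with 0.0869% higher and 0.0474% lower; after scaling 0.111% were called, 0.079% higher and 0.0316% lower. The count over all genes rests on the shared estimate of spread: it was 219 without the third library labelled wildtype, EBSS and 249 with only the 6 libraries compared, while that of the cathepsins was 0 in both. The changes of the cathepsins ran from -0.16 (Ctso, 95% interval -0.65 to 0.33) to 0.16 (Ctss, 95% interval -1.37 to 1.69), and after scaling from -0.13 (Ctso) to 0.19 (Ctsd). The intervals were narrow for the abundant members, at -0.16 to 0.09 for Ctsb and -0.18 to 0.18 for Ctsa, and the interval of Ctsh was -0.25 to 0.36. The wide interval of Ctss leaves differences of more than 1 log2 unit undetected.

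In the libraries labelled wildtype, EBSS the direction of several abundant cathepsins depended on the scaling. Against wildtype cells in full medium, as deposited, limma called all 9 members tested, 3 higher and 6 lower; after scaling 8 were called, 6 higher and 2 lower. Of all genes tested 81.1% were called as deposited, 9.25% higher and 71.8% lower; after scaling 66.1% were called, 30.3% higher and 35.7% lower. The median of the 9 was -0.47 beside -0.94 over all genes, and 0.48 beside -0.10 after scaling. Ctsd, Ctsa and Ctss were higher and Ctsc and Ctso lower under both scalings, while Ctsb, Ctsh, Ctsl and Ctsz changed sign.

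Ctsd was at 1169, 1242 and 1111 TPM in libraries labelled wildtype, EBSS, against 618, 708 and 665 TPM in wildtype cells in full medium, the highest levels of any cathepsin in these data. The difference was 0.82 (SE 0.08; limma, adjusted p = 1.8e-06) as deposited and 1.82 after scaling. Ctsa was at 437, 499 and 413 TPM in EBSS, against 379, 380.0 and 363 TPM in full medium, a difference of 0.26 (limma, adjusted p = 0.0113), and 1.26 after scaling. Neither gene overlapped between media, and the share of all genes without overlap was not counted here. Ctsc was at 0.413, 0.431 and 1.06 TPM in EBSS, against 4.09, 3.80 and 3.96 TPM in full medium, a difference of -1.62, and -1.09 after scaling. Ctso was at 0.662, 0.736 and 2.26 TPM in EBSS, against 3.996, 4.41 and 4.74 TPM in full medium, a difference of -1.35, and -0.72 after scaling. For both genes the third EBSS library was the highest of its group.

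Ctsb was at 328, 328 and 344 TPM in libraries labelled wildtype, EBSS, against 586, 579.9 and 571 TPM in full medium, a difference of -0.80 as deposited and 0.20 after scaling. Ctsl was at 277, 253 and 271 TPM in EBSS, against 422, 451 and 434 TPM in full medium (-0.71 as deposited; 0.29 after scaling, adjusted p = 0.0565). Ctsz, at 316, 337 and 359.8 TPM in EBSS, against 430.3, 495 and 442 TPM in full medium, changed by -0.43 as deposited and by 0.57 after scaling. For these genes and for Ctsh (-0.47 and 0.48) no direction can be given. What does not depend on scaling is the order within a library. The ratio of Ctsd to Ctsb was 3.57, 3.78 and 3.23 in libraries labelled wildtype, EBSS, against 1.05, 1.22 and 1.16 in wildtype cells in full medium. The ratio of Ctsa to Ctsl was 1.58, 1.97 and 1.53, against 0.899, 0.843 and 0.835 in full medium.

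**Figure D4:**
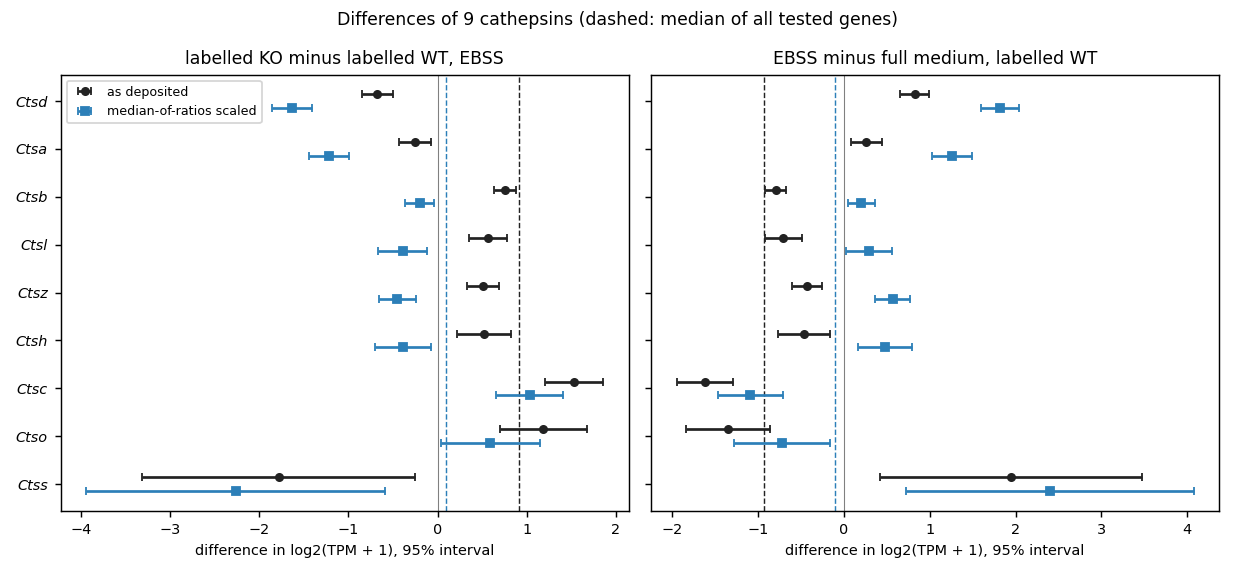
Difference in log2(TPM + 1) with its 95% interval for 9 cathepsins, from libraries labelled KO minus those labelled wildtype in EBSS (left) and from EBSS minus full medium among wildtype labels (right); circles are TPM as deposited, squares are scaled values, dashed lines are the medians of all tested genes. Ctsb, Ctsl, Ctsz and Ctsh cross 0 between the scalings in both panels, and Ctsd, Ctsa, Ctss, Ctsc and Ctso keep their side.

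Counts of other lysosomal genes in the libraries labelled wildtype, EBSS also depended on the scaling, while 4 named here kept their direction. Against full medium, 1 of 8 genes of sorting and maturation was higher and 6 were lower as deposited, and 5 were higher and 2 lower after scaling. Of all genes tested, 9.25% were higher and 71.8% lower as deposited, and 30.3% and 35.7% after scaling. Gnptab, the catalytic subunit of the tagging enzyme, fell by 2.46 and by 1.60 after scaling. M6pr, the small mannose 6-phosphate receptor, fell by 1.79 and by 0.81 after scaling. The lysosomal dipeptidyl peptidase Dpp7 rose by 1.69 and by 2.69 after scaling, and Glb1, beta-galactosidase, fell by 2.28 and by 1.32 after scaling.

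Between the EBSS groups, limma called all 9 cathepsins in libraries labelled KO against those labelled wildtype, 6 higher and 3 lower, and after scaling 8, 1 higher and 7 lower. Of all genes 80.5% were called, 71.9% higher and 8.58% lower; after scaling 63.8% were called, 34.8% higher and 29% lower. The median of the 9 was 0.52 beside 0.91 over all genes, and -0.39 beside 0.10 after scaling. Ctsd was at 680.4, 788 and 738 TPM in libraries labelled KO, against 1169, 1242 and 1111 TPM in those labelled wildtype, a difference of -0.67 (SE 0.08; limma, adjusted p = 9.6e-06) as deposited and -1.64 after scaling. Ctsa differed by -0.26 (limma, adjusted p = 0.0121), a call lost when the second library labelled wildtype was left out (adjusted p = 0.052), and by -1.22 after scaling. Ctsc, at 3.69, 3.59 and 3.67 TPM in libraries labelled KO, against 0.413, 0.431 and 1.06 TPM in those labelled wildtype, differed by 1.53, and by 1.03 after scaling. Ctso differed by 1.18, and by 0.59 after scaling (adjusted p = 0.0603). Ctsb, Ctsl, Ctsh and Ctsz were higher under the KO label as deposited, by 0.76, 0.57, 0.52 and 0.51, and lower after scaling, at -0.20, -0.39, -0.39 and -0.45. The ratio of Ctsd to Ctsb was 1.26, 1.39 and 1.26 in libraries labelled KO, against 3.57, 3.78 and 3.23 in those labelled wildtype, without overlap.

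Between the libraries labelled wildtype, EBSS and KO cells in full medium, whose labels differ in genotype and medium, the largest difference among the 9 members was that of Ctsh. Rbbp5 was at 12.4, 13.97 and 11.8 TPM under the wildtype label in EBSS. Against KO cells in full medium it was higher by 0.55 as deposited (limma, adjusted p = 0.00258) and by 1.31 after scaling (limma, adjusted p = 2.6e-06). Against wildtype cells in full medium it differed by -0.98 as deposited and by -0.03 after scaling. How near it lay to the wildtype level thus depends on the scaling, and the label is not settled. Ctsh was at 12.3, 15.6 and 10.7 TPM in libraries labelled wildtype, EBSS, against 1.28, 1.15 and 1.47 TPM in KO cells in full medium, a difference of 2.58 (SE 0.14; limma, adjusted p = 4.2e-08), and 3.296 after scaling. By limma 7 of 9 were called, 5 higher and 2 lower, and after scaling 8 were higher and 0 lower. Of all genes 75.1% were called, 11.6% higher and 63.5% lower, and after scaling 63.1%, with 29.5% higher and 33.7% lower. The median of the 9 was 0.29 beside -0.73 over all genes, and 0.99 beside -0.06 after scaling. Ctsb differed by 0.01 as deposited, with a 95% interval of -0.11 to 0.14, and by 0.82 after scaling. Some of the smaller calls rested on single libraries. Ctso (0.57; limma, adjusted p = 0.036) was not called without the third library labelled wildtype, EBSS, at 0.26, or without any 1 of the KO libraries (adjusted p = 0.055 to 0.0899). Ctsc (0.40) was not called without the second or the third KO library (adjusted p = 0.0642 and 0.0783), and Ctsl (0.29) was not called without the first library labelled wildtype, EBSS (adjusted p = 0.0542). After scaling these 3 differences were 0.99, 0.71 and 1.10.

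The difference between the EBSS responses of the 2 genotype labels was tested as an interaction, the change among KO labels minus that among wildtype labels. All 9 members passed as deposited, 6 positive and 3 negative, and 8 after scaling, 4 positive and 4 negative. Of all genes 76.7% passed, 64.2% positive and 12.5% negative; after scaling 66.8%, with 34.1% positive and 32.7% negative. Ctsh changed by 3.10 among KO labels and by -0.47 among wildtype labels, an interaction of 3.56 (SE 0.19; limma, adjusted p = 3.5e-08), and 2.43 after scaling. After scaling Ctsh changed by 2.91 among KO labels and by 0.48 among wildtype labels, so its sign among wildtype labels depends on the scaling. Ctsd changed by -0.38 among KO labels and by 0.82 among wildtype labels, an interaction of -1.21 (SE 0.11; limma, adjusted p = 1.6e-06), and -2.36 after scaling.

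One library decided the level of Ctss in EBSS. Fits without that library kept Ctss by the filter taken over all 12 libraries. Ctss met that filter only through 3 libraries, that one included, so those fits are no support for a change. Ctss was at 0.661, 0.959 and 17.6 TPM in libraries labelled wildtype, EBSS, against 0, 0.0234 and 0.0351 TPM in wildtype cells in full medium. The difference of 1.95 (SE 0.69; limma, adjusted p = 0.0223) was 2.40 after scaling, and 0.82 (adjusted p = 0.0013) unscaled without the third library. Between the EBSS groups Ctss, at 0.375, 0.0802 and 0 TPM under the KO label, differed by -1.78 (limma, adjusted p = 0.0334; -2.26 after scaling), and by -0.66 (adjusted p = 0.00531) without that library; the call was lost when any library labelled KO, EBSS was left out (adjusted p = 0.0521 to 0.0782). In the third library labelled wildtype, EBSS transcripts of other cell types stood out. Of 12 macrophage markers, 9 were highest of all 12 libraries there, as were 10.0% of the 20258 genes above 0 in at least 1 library. Lyz2 was at 48.4 TPM, against at most 5.19 TPM in the other 11, Tyrobp at 6.20 TPM, against at most 0.674 TPM, and Adgre1 at 3.38 TPM, against at most 0.292 TPM. The liver transcript Alb, picked after its values were seen, was at 75.5 TPM, against at most 4.81 TPM. In full medium Alb was at 4.81, 0.845 and 2.22 TPM in KO cells, against 0.412, 0.488 and 0.599 TPM in wildtype cells. The 12 macrophage markers summed to 40.3 to 60.5 TPM in libraries labelled KO, EBSS, to 27.0, 29.3 and 106 TPM in libraries labelled wildtype, EBSS, to 68.3 to 73.2 TPM in KO cells in full medium and to 36.8 to 38.2 TPM in wildtype cells in full medium. Adgre1 and Tyrobp were at 0 in all 3 libraries labelled KO, EBSS and in all 3 of wildtype cells in full medium. In KO cells in full medium, where Ctss was near 1 TPM, 6 of the 12 macrophage markers were above and 2 below all wildtype libraries; of the 20258 genes above 0 in at least 1 library, 25.0% were above and 37.2% below without overlap. Cd68, a lysosomal glycoprotein that fibroblasts also express, was at 57.1, 62.0 and 56.4 TPM, against 16.1, 16.4 and 16.2 TPM in wildtype cells. The 2 markers below were Cd14, with a mean of 3.45 TPM in KO cells against 11.9 TPM in wildtype cells, and Cd74, with 3.35 against 7.65 TPM. Cd74 was at 7.72 to 30.3 TPM in libraries labelled KO, EBSS, where Ctss was at most 0.375 TPM. In libraries labelled wildtype, EBSS it was at 2.34 to 4.06 TPM. In such bulk libraries more cells of a type and more RNA per cell cannot be told apart, and the part of macrophage transcripts in the Ctss values was not tested.

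**Figure D5:**
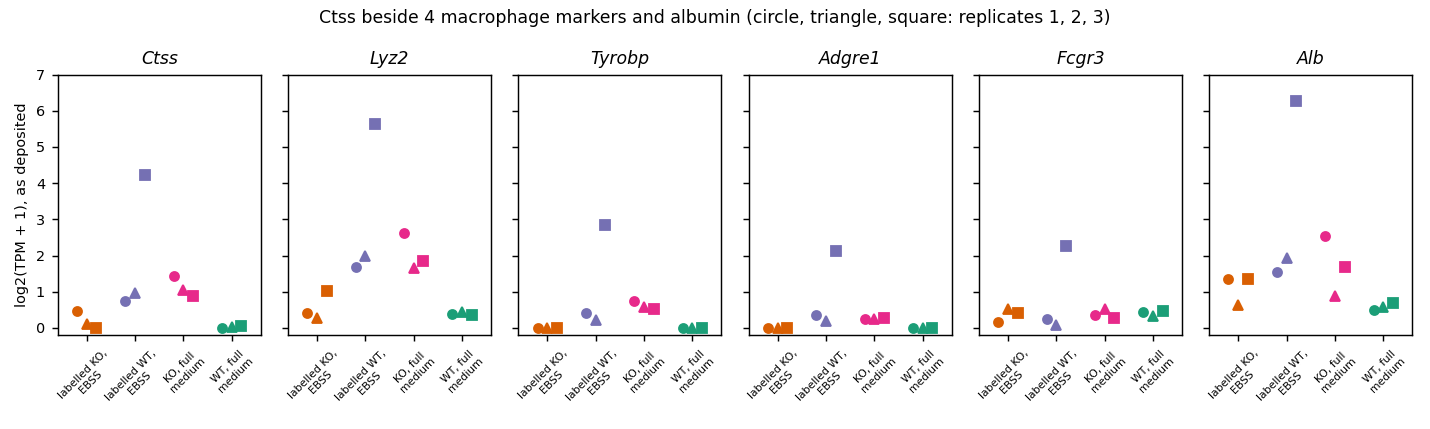
Ctss, 4 macrophage markers and albumin (Alb) as log2(TPM + 1) in the 12 libraries; circles, triangles and squares are replicates 1, 2 and 3. The third library labelled wildtype, EBSS is the highest point in all 6 panels. Ctss, Lyz2, Tyrobp, Adgre1 and Alb are higher in KO cells than in wildtype cells in full medium, and Fcgr3 overlaps between them.

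Across the 12 libraries, several members followed each other closely after median-of-ratios scaling. The Pearson correlation of scaled log2(TPM + 1) was 0.98 for Ctsb and Ctsl, 0.97 for Ctsb and Ctsh, 0.97 for Ctsa and Ctsd, 0.96 for Ctsc and Ctso, 0.92 for Ctsh and Ctsl, 0.92 for Ctsd and Ctsz and 0.84 for Ctsa and Ctsz, and -0.73 for Ctsa and Ctsc. The points are 4 groups of 3 libraries that share their scaling, so these values describe the groups. The values for Ctsz rest on the scaling. As deposited, the group mean of Ctsz was lowest in the libraries labelled wildtype, EBSS (337 TPM), where that of Ctsd was highest (1174 TPM). Correlations of the values as deposited were not computed. Outside the family the tested genes most like the members were Aamp for Ctsd (0.998), Clta for Ctsa (0.992), Arhgdig for Ctsb (0.997), Ngef for Ctsl (0.987), Pabpn1 for Ctsz (0.966), Mapk13 for Ctsh (0.992), Itpkb for Ctsc (0.996), Gprc5b for Ctso (0.993), Dhrs3 for Ctsk (0.969) and Grap for Ctss (0.980). The second gene most like Ctss was the macrophage marker Lyz2 (0.979). In the third library labelled wildtype, EBSS, Ctss was at 17.6 TPM and Lyz2 at 48.4 TPM. Elsewhere they reached at most 1.70 and 5.19 TPM, and correlations without that library were not computed.

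In GENCODE vM21 on GRCm38, Ctsd lies at chr7:142375911-142388038 on the minus strand, Ctsa at chr2:164832873-164841032 on the plus strand, Ctsb at chr14:63122462-63145923 on the plus strand and Ctsl at chr13:64359337-64370890 on the minus strand. Exons of Ctsa overlap Neurl2 and Pltp, those of Ctsb overlap Fdft1 and those of Ctsz overlap Nelfcd on the other strand, and exons of Ctsd overlap Gm49369 and those of Ctsl Gm49230 on the same strand. Whether strand was used in the quantification is not given in the sources used here, so reads could be shared within these pairs.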

How the data were processed

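RNA of 12 libraries was deposited by the authors as 1 table of TPM per gene symbol; titles gave the groups and replicate numbers. Per the labels' protocols, column-purified and DNase-treated RNA was prepared as poly(A) libraries with an Illumina TruSeq kit. The submitters' processing notes name Salmon and mm10. Its version, the annotation and the use of strand: not given in the sources used here. TPM keeps no count, so depth is unknown, no counting interval is given and low values such as Ctss are limited to an unknown extent.

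Of 25117 symbols, 12653 with at least 1 TPM in at least 3 libraries were tested on log2(TPM + 1) with limma 3.58.1 (R 4.3.3), group means over all 12 libraries, moderated variances with a trend, two-sided p-values and Benjamini-Hochberg adjustment over all genes with a threshold of 0.05. The added 1 understates changes of low genes. Median-of-ratios factors came from 11892 genes. Other settings were a pseudocount of 0.1, no filter, a mean of at least 5 TPM, only the 6 libraries compared, a replicate block and leaving out each library; fits without the group or the third library labelled wildtype, EBSS were added after seeing the data. Fits on fewer libraries kept the filter taken over all 12 libraries. The fit was tested on simulated data. Same-numbered libraries did not deviate together.

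All 10 cathepsins were described in each comparison, and other genes came from lists of cathepsin inhibitors, sorting and maturation genes, Ctsa partners, other lysosomal proteases, other cathepsins and lysosomal transcription factors. Members and lists were chosen with earlier results of these data known. Gene coordinates are from GENCODE vM21 and promoter windows from RefSeq on GRCm38.p6. Figures were drawn with matplotlib 3.10.9.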

Additional observations from a re-analysis of the deposited data

Results flagged for a closer look

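The response to EBSS differed between the genotype labels for all 9 cathepsins tested, by limma's interaction test on the values as deposited; 76.7% of all 12653 genes passed the same test, and 66.8% after median-of-ratios scaling, so a difference of this kind is not particular to the cathepsins. The interaction, the change among KO labels minus that among wildtype labels, was 3.56 for Ctsh, 3.56 for Ctsc, 3.10 for Ctso, 1.57 for Ctsb, 1.57 for Ctsl and 0.58 for Ctsz. It was -0.78 for Ctsa, -1.21 for Ctsd and -2.87 for Ctss (adjusted p = 0.0194). After median-of-ratios scaling it was 2.43 for Ctsh, 2.84 for Ctsc, 2.30 for Ctso, 0.42 for Ctsb, 0.42 for Ctsl (adjusted p = 0.0532), -1.93 for Ctsa, -2.36 for Ctsd and -3.30 for Ctss, and for Ctsz it changed sign. Rbbp5 itself had an interaction of 2.52 as deposited and 1.42 after scaling. Leaving out single libraries kept all 9 calls, and the interaction of Ctss then ran from -3.49 to -1.75. The value nearest 0 was that without the third library labelled wildtype, EBSS. Ctss met the filter on low values only with that library, and the fit without it kept the same filter. Ctsc and Ctso met it only through groups in which they were high. The count of 9 is therefore no support for a change of the family.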

How the results depend on the processing

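The number of cathepsins called stayed within 1.5 times its value under each setting tried, and with 1 library left out it was 7 to 8 for KO minus wildtype in full medium, 8 to 9 between EBSS groups, 8 to 9 for EBSS minus full medium among wildtype labels, 7 to 8 among KO labels, 0 to 0 for libraries labelled KO, EBSS minus wildtype in full medium, 5 to 7 for libraries labelled wildtype, EBSS minus KO in full medium and 9 to 9 for the interaction. The members counted included Ctss, which met the filter on low values only with the third library labelled wildtype, EBSS. Median-of-ratios scaling changed signs. Ctsz became 0.12 in KO minus wildtype in full medium, -0.00364 in EBSS minus full medium among KO labels and -0.57 in the interaction. Between EBSS groups Ctsb became -0.20, Ctsh -0.39, Ctsl -0.39 and Ctsz -0.45. In EBSS minus full medium among wildtype labels Ctsb became 0.20, Ctsh 0.48, Ctsl 0.29 and Ctsz 0.57. In libraries labelled wildtype, EBSS minus KO in full medium Ctsa became 0.55 and Ctsz 0.45. Scaling without library 3 labelled wildtype, EBSS, in the same order, gave -0.55 for Ctsz in the interaction; -0.20, -0.53, -0.40 and -0.43; 0.20, 0.62, 0.31 and 0.54, with Rbbp5 at 0.040; and 0.63 and 0.42. With 1 library left out, values near 0 changed sign: Ctsa (-0.0368 to 0.0492) and Rbbp5 (-0.126 to 0.102) in libraries labelled KO, EBSS minus wildtype in full medium, and Ctsb (-0.00935 to 0.0251) and Ctss (-0.264 to 1.48) in libraries labelled wildtype, EBSS minus KO in full medium. The cause was not tested. Calls of Ctss were lost between EBSS groups without each library labelled KO, EBSS (adjusted p = 0.0521, 0.0715 and 0.0782) and, among wildtype labels, without library 1 in full medium (adjusted p = 0.0502). In libraries labelled wildtype, EBSS minus KO in full medium the calls of Ctso, Ctsc and Ctsl were lost in some fits; Ctso was at 0.26 (adjusted p = 0.055) without library 3 labelled wildtype, EBSS. Rbbp5 after scaling differed by 0.08 between EBSS groups (adjusted p = 0.558). Among all genes, the 17 calls of libraries labelled KO, EBSS minus wildtype in full medium became 32 without the filter, 249 with only the 6 libraries, 102 without the group labelled wildtype, EBSS, 219 without library 3 of that group, 8, 9 and 8 without each wildtype library in full medium, and 10 and 8 without libraries 2 and 3 labelled KO, EBSS. Same-numbered libraries did not pair: their deviations correlated at -0.0728 to 0.0793. The replicate block changed no call of a cathepsin and left 7 calls among all genes in that comparison. Read depth is unknown, which limits Ctss, Ctsk, Ctsc and Ctso.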
